A study of Mus musculus with 9 samples.

Results

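Genes of the tight junction and the desmosome were followed across MC38 colon carcinoma cells and their liver metastatic derivatives. The 9 members were taken by symbol from the 16399 genes listed in each deposited table: 6 of the tight junction (F11r, Tjp1, Ocln, Cldn1, Cldn4 and Cldn7) and 3 of the desmosome (Dsp, Jup and Pkp2). MC38-P is the parental line, a colon carcinoma line of C57BL/6 mice that carries a reporter of GFP and luciferase. MC38-LM3a and MC38-LM3b descend from it and carry the same reporter. The study calls them independently derived at the third generation, and its text does not say whether they shared earlier rounds. Parental cells were injected into the spleen of young adult C57BL/6 mice, cells from the liver lesions were grown in culture and injected again, and both derivatives were taken after the third round. Each group had 3 libraries of poly(A) RNA from cultured cells, which the study calls biological replicates. The labels do not say which cultures they came from, so p-values measure only the spread between these libraries. The derivatives were 1 line each, so a feature of liver passage and a feature of that line cannot be told apart.

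Tight junctions seal the space between neighbouring epithelial cells near their apical side. Claudins form the strands of the seal, occludin and the junctional adhesion molecules lie beside them in the membrane, and zonula occludens proteins tie these to actin. Desmosomes hold cells together mechanically: the desmosomal cadherins (desmogleins and desmocollins) span the membrane, plakoglobin and plakophilins bind their tails, and desmoplakin joins that plaque to keratin filaments. In colonic epithelium both structures are kept with E-cadherin at the adherens junction, and Snail and Zeb factors are known repressors of many of their genes.

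Expression was given as TPM, a measure of transcript abundance that is scaled for transcript length and library size, so levels can be set against each other between genes. The deposited values keep no count of reads, so depth was unknown and an entry of 0 says only that the gene was listed at 0. Between 10875 and 11218 genes reached 1 TPM in a library, and the libraries correlated with each other at r of 0.969 to 0.997 across genes. MC38-P replicate 3 and MC38-LM3a replicate 3 stood apart from their groups by transcript length. The deviation of a gene from the other 2 libraries of its group had a Spearman correlation with transcript length of -0.62 in MC38-P replicate 3 and 0.644 in MC38-LM3a replicate 3, over 11096 genes that are not independent. In the other libraries of these groups the correlation had the opposite sign, at 0.509 and 0.413 in MC38-P replicates 1 and 2 and -0.552 and -0.513 in MC38-LM3a replicates 1 and 2, each of which was set against a pair that includes the replicate 3. It lay between -0.013 and 0.016 in the MC38-LM3b libraries.

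The members with long transcripts carried this deviation. Tjp1, with a longest transcript of 7049 bases, was lower by 0.485 on the log2(TPM + 1) scale in MC38-P replicate 3 and higher by 0.62 in MC38-LM3a replicate 3. Dsp, with 9592 bases, gave values of -0.447 and 0.638. In F11r, Ocln, Jup and Pkp2, with 2518 to 4052 bases, the deviations ran from -0.35 to -0.132 in the first library and from 0.087 to 0.243 in the other. Fold changes of tested members against MC38-P are therefore given on the deposited values and after offsets that remove the dependence on transcript length and GC content in each library. Those of other genes are on deposited values, with the value after the offsets where it changes a call.

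**Figure D1:**
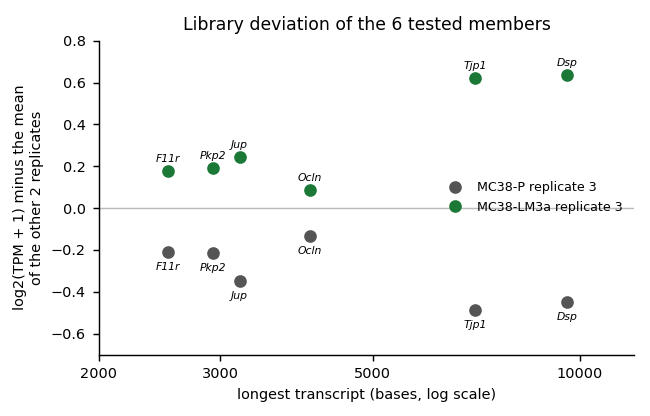
Deviation of the 6 members with measurable levels in the libraries that stood apart. The x axis is the longest transcript in bases on a log scale and the y axis is log2(TPM + 1) minus the mean of the other 2 replicates. Tjp1 and Dsp, the longest, lie farthest from 0, at -0.485 and -0.447 in MC38-P replicate 3 and at 0.62 and 0.638 in MC38-LM3a replicate 3.

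The members fell into a measurable and a near-absent part. Tjp1 had the highest level, from 71.6 to 133 TPM over the 9 libraries. Pkp2 (48.1 to 80.2 TPM), Jup (45.7 to 72.9 TPM) and F11r (36.8 to 74.4 TPM) followed, and these ranges overlapped from each gene to the next. Dsp lay apart at 12.7 to 31.8 TPM and Ocln at 4.82 to 8.66 TPM. The 3 claudins stayed under 1 TPM in every library: Cldn4 at 0.21 to 0.72 TPM, Cldn7 at 0 to 0.15 TPM and Cldn1 at 0 to 0.03 TPM. Cldn7 was listed at 0 in 7 libraries and Cldn1 in 8. These 3 did not pass the filter of at least 1 TPM in at least 3 libraries, so 6 of the 9 members were tested.

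**Figure D2:**
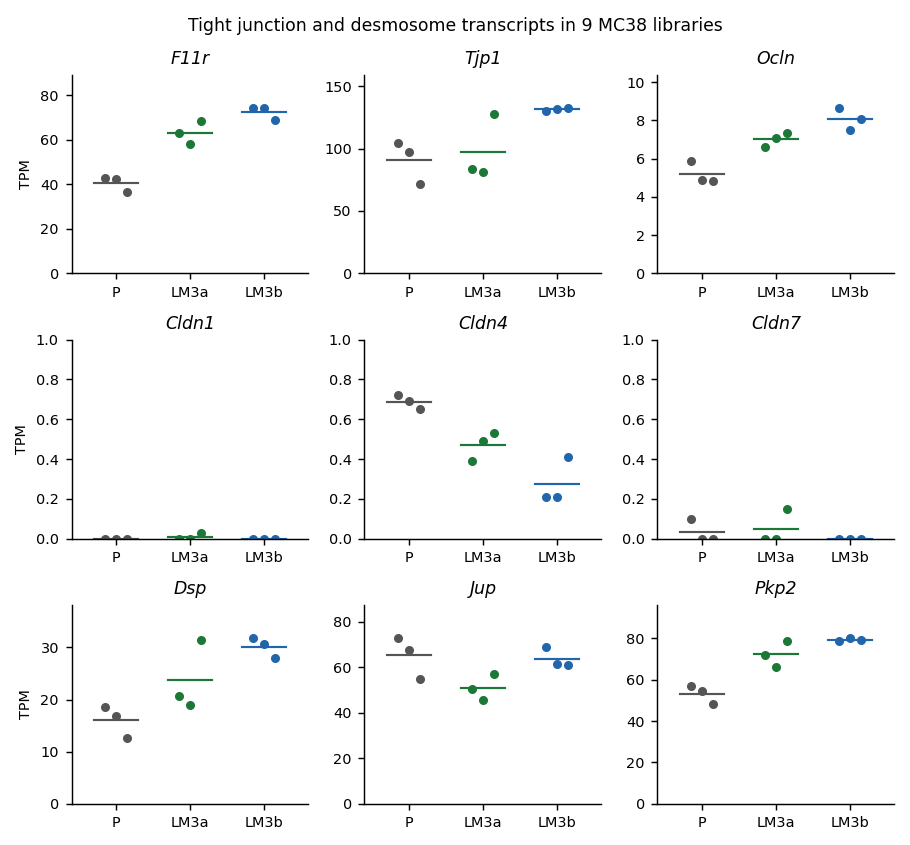
TPM of the 9 members in each library, with 1 panel a gene and each y axis starting at 0. Points are libraries, horizontal lines are group means, and P, LM3a and LM3b stand for MC38-P, MC38-LM3a and MC38-LM3b (n = 3 each). In F11r, Ocln, Pkp2 and Dsp both derivatives lie above MC38-P without overlap, Dsp in MC38-LM3a by a narrow gap, and in Cldn4 they lie below it. Cldn1, Cldn4 and Cldn7 lie under 1 TPM throughout. The share of all genes whose groups do not overlap is not given here, so nothing is read from the separation.

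Promoter windows are printed for the members called higher in a derivative that have one (F11r, Ocln, Tjp1 and Dsp) and for Jup, which was not called higher, so that the E-box letters can be compared. Pkp2 had no window in the table used. The sequences are RefSeq windows of GRCm38.p6 from 250 bases before to 50 after the gene's start, read 5′ to 3′ on the gene's strand. The submitters' processing notes name GRCm39, and no coordinate was converted. Capitals mark CACCTG or CAGGTG, the same E-box read on either strand.
F11r, chr1:171437311-171437610, plus strand: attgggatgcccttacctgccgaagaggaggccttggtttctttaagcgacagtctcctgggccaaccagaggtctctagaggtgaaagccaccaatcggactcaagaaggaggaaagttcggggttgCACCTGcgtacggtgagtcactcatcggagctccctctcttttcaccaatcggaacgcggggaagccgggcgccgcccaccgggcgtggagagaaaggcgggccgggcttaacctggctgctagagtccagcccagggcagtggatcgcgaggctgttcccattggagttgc
Ocln, chr13:100552449-100552748, minus strand: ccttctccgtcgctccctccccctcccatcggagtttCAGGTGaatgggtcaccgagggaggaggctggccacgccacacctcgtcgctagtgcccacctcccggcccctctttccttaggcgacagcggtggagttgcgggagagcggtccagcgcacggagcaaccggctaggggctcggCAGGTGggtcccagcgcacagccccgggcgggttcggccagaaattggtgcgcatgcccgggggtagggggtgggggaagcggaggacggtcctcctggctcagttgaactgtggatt
Dsp, chr13:38151044-38151343, plus strand: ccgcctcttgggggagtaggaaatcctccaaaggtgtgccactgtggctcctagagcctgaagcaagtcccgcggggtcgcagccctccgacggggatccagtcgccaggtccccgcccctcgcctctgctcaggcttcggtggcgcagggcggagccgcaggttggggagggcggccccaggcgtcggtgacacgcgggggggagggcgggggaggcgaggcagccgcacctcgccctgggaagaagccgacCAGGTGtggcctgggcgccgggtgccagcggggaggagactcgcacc
Tjp1, chr7:65371195-65371494, minus strand: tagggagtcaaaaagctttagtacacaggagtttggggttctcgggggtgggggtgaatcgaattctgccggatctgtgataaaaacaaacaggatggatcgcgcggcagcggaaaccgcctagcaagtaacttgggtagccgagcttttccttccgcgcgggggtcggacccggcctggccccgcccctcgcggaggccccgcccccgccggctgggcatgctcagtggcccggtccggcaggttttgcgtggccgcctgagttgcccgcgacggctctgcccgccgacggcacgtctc
Jup, chr11:100397741-100398040, minus strand: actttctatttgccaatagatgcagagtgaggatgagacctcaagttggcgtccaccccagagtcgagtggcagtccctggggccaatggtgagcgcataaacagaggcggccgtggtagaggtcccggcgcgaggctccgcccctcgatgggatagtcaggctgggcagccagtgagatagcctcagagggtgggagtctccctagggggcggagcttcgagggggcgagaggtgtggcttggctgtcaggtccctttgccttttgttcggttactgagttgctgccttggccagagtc

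Positions were counted from the gene's start, with negative values upstream. The F11r window held 1 E-box, which begins at -122. The Ocln window printed above held 2, which begin at -213 and -68, and the Dsp window held 1, which begins at 4. Another Ocln window, which overlaps the printed one, held 1 match, the same E-box that begins at -213 in the printed window. Cldn4 held 2, and Cldn7 held 0 in one window and 2 in the other. No match was found in the windows of Tjp1, which was called higher in MC38-LM3b, of Jup or of Cldn1. Of all 32851 windows of this length, 20.2% held the E-box. The Grainyhead-like core AACCNGTT, searched on both strands, stood in 2.09% of all windows and in 0 of the windows of the 8 members that had one. A match is a description of the letters and not a bound site.

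Of the membrane proteins of the tight junction, F11r and Ocln were higher in both derivatives. F11r encodes JAM-A, the junctional adhesion molecule that helps recruit polarity proteins. It measured 42.9, 42.5 and 36.8 TPM in MC38-P, 63.0, 58.0 and 68.5 TPM in MC38-LM3a, and 74.2, 74.4 and 69.0 TPM in MC38-LM3b. On deposited values the 3 groups did not overlap, and every MC38-LM3b library lay above every MC38-LM3a library. After the offsets the derivatives overlapped each other. The share of all genes whose groups separate is not given here, so nothing is read from such separation in any member. Against MC38-P, F11r was higher by 0.62 on the log2 scale in MC38-LM3a (SE 0.0876, limma adjusted p = 0.000488) and by 0.82 in MC38-LM3b (SE 0.0876, limma adjusted p = 6.49e-05). These differences, like all others here, are on the log2(TPM + 1) scale, which understates changes of low genes. F11r made up 98.5% to 99.5% of the summed TPM of the 3 listed junctional adhesion molecules in every library, and the total of this family was 41.1 ± 3.52 TPM in MC38-P, with 63.7 ± 5.66 TPM in MC38-LM3a, and 73.2 ± 3.09 TPM were reached in MC38-LM3b (SD, n = 3 each).

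Ocln encodes occludin, a membrane protein of the strand. Its values were 5.89, 4.90 and 4.82 TPM in MC38-P, 6.61, 7.10 and 7.34 TPM in MC38-LM3a, and 8.66, 7.48 and 8.05 TPM in MC38-LM3b. On deposited values the groups were again separate and in the same order. After the offsets the derivatives overlapped each other, and the difference of MC38-LM3b from MC38-LM3a was -0.053. Ocln was higher by 0.37 in MC38-LM3a (SE 0.112, limma adjusted p = 0.0307) and by 0.55 in MC38-LM3b (SE 0.112, limma adjusted p = 0.003). The MC38-LM3a call was lost in 7 of 21 alternative analyses, among them those without MC38-P replicate 2 (adjusted p = 0.111), MC38-P replicate 3 (0.0656), MC38-LM3a replicate 1 (0.0551), MC38-LM3a replicate 2 (0.0806) or MC38-LM3b replicate 3 (0.0544), all by limma. The MC38-LM3b call stood in all 21.

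Tjp1 encodes ZO-1, the scaffold under the strands. It measured 104, 97.0 and 71.6 TPM in MC38-P, 83.7, 81.4 and 127 TPM in MC38-LM3a, and 130, 132 and 133 TPM in MC38-LM3b. MC38-LM3a overlapped MC38-P, with its replicate 3 alone near the MC38-LM3b level, whereas every MC38-LM3b library lay above both other groups. The difference was 0.08 in MC38-LM3a (95% interval -0.29 to 0.46, limma adjusted p = 0.763) and 0.54 in MC38-LM3b (SE 0.171, limma adjusted p = 0.0245). After the length and GC offsets these became 0.15 (limma adjusted p = 0.0508) and 0.26 (limma adjusted p = 0.00259). In MC38-LM3a Tjp1 was called in 2 of 21 alternatives, in opposite directions. It was lower with limma arrayWeights (-0.21, limma adjusted p = 0.000263) and higher with the first residual component as covariate (0.08, limma adjusted p = 0.0303). The MC38-LM3b call stood in 15 of 21 alternatives. Without MC38-P replicate 3 the MC38-LM3b difference was 0.38 (limma adjusted p = 0.0831). The call was also lost without any 1 of the MC38-LM3b libraries, at adjusted p of 0.0626 to 0.066 by limma. It was lost too with no filter on low values (limma adjusted p = 0.0521) and with the replicate block (limma adjusted p = 0.0631).

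The claudin members, which form the seal itself, were near the bottom of the scale in all groups. Cldn4 measured 0.72, 0.69 and 0.65 TPM in MC38-P, 0.39, 0.49 and 0.53 TPM in MC38-LM3a, and 0.21, 0.21 and 0.41 TPM in MC38-LM3b. MC38-P lay above both derivatives without overlap, at levels the main filter leaves out. With no filter on low values, Cldn4 was lower in MC38-LM3b, with a difference of -0.41 (limma adjusted p = 0.00264) and the difference in MC38-LM3a was -0.20 (limma adjusted p = 0.0756). Among the 17 claudins listed, Cldn12, an atypical claudin outside the classical group and named here after its values were seen, made up 80.4% to 88.5% of the summed TPM in each library. On deposited values Cldn12 itself was not called, with differences of -0.21 in MC38-LM3a (limma adjusted p = 0.321) and 0.08 in MC38-LM3b (limma adjusted p = 0.638). It was called lower in MC38-LM3a in 6 of 21 alternatives, among them after the offsets (-0.23, limma adjusted p = 0.0185), and the sign of the MC38-LM3b difference changed in 6 of 21. The claudin total was 18.7 to 26.6 TPM in MC38-P, 18.9 to 25.8 TPM in MC38-LM3a and 23.9 to 26.5 TPM in MC38-LM3b.

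Of the desmosome members, Pkp2 was higher in both derivatives. It encodes plakophilin 2, which binds desmoplakin and clusters the plaque. Pkp2 measured 57.0, 54.8 and 48.1 TPM in MC38-P, 72.1, 66.1 and 78.8 TPM in MC38-LM3a, and 78.6, 80.2 and 79.0 TPM in MC38-LM3b. All 6 derivative libraries lay above all 3 parental ones, and the derivatives overlapped each other. The difference was 0.43 in MC38-LM3a (SE 0.0856, limma adjusted p = 0.00369) and 0.57 in MC38-LM3b (SE 0.0856, limma adjusted p = 0.000528). For F11r and for Pkp2 the calls stood in all 21 alternative analyses in both derivatives, with the highest limma adjusted p at 0.00484 for F11r and 0.0212 for Pkp2.

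Dsp encodes desmoplakin, the link to keratin filaments. Its values were 18.6, 16.9 and 12.7 TPM in MC38-P, 20.7, 18.9 and 31.4 TPM in MC38-LM3a, and 31.8, 30.6 and 28.0 TPM in MC38-LM3b. Both derivatives lay above MC38-P, MC38-LM3a by a narrow gap, and MC38-LM3a replicate 3 reached the MC38-LM3b range. In MC38-LM3b Dsp was higher by 0.88 (SE 0.182, limma adjusted p = 0.00312), and this call stood in all 21 alternatives. In MC38-LM3a the difference was 0.52 (SE 0.182, limma adjusted p = 0.0574). After the offsets it was 0.66 (limma adjusted p = 6.47e-06). Dsp was called in MC38-LM3a in 8 of 21 alternatives, which were those with other scalings, weights or a covariate and those without MC38-P replicate 1 (limma adjusted p = 0.0492) or MC38-LM3a replicate 2 (limma adjusted p = 0.034).

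Jup encodes plakoglobin, the catenin shared by desmosomes and adherens junctions, and it did not follow Pkp2 and Dsp. It measured 72.9, 67.8 and 54.9 TPM in MC38-P, 50.3, 45.7 and 56.9 TPM in MC38-LM3a, and 68.8, 61.2 and 60.9 TPM in MC38-LM3b. MC38-LM3a was the lowest group and overlapped MC38-P, and MC38-LM3b lay within the parental range. Jup was lower in MC38-LM3a, with a difference of -0.34 (SE 0.115, limma adjusted p = 0.0459). This call was lost in 10 of 21 alternatives, including those without any 1 of 7 libraries (MC38-P replicates 1 and 2, MC38-LM3a replicates 1 and 2 and each MC38-LM3b library), at limma adjusted p of 0.0617 to 0.154. In MC38-LM3b the difference was -0.03 (95% interval -0.28 to 0.23, limma adjusted p = 0.858). After the offsets Jup was lower in both, at -0.27 (limma adjusted p = 0.00145) and -0.20 (limma adjusted p = 0.00715).

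In all, 3 of the 6 tested members were higher in MC38-LM3a at an adjusted p under 0.05 (F11r, Ocln and Pkp2) and 1 was lower (Jup), where 14.1% of the 11287 genes tested were called higher and 13.8% lower. In MC38-LM3b 5 were higher (F11r, Tjp1, Ocln, Dsp and Pkp2) and 0 lower, where 35.6% of all genes were called higher and 11.2% lower. None of the 6 reached the DEG threshold of the study, an adjusted p under 0.05 with an absolute log2 fold change above 1, in either comparison. That threshold was passed by 2.89% of genes in MC38-LM3a and 3.93% in MC38-LM3b. At an unadjusted p under 0.05, 5 of the 6 members differed in each comparison by limma. Every gene called above also passes that looser threshold, and the share of all genes that does is not given here. Nothing is therefore read from this unadjusted count.

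The whole distribution of genes was shifted in MC38-LM3b, with a median log2 difference of 0.21 over all tested genes against -0.00 in MC38-LM3a. Relative to that median the MC38-LM3b differences were 0.67 for Dsp, 0.61 for F11r, 0.36 for Pkp2, 0.34 for Ocln and 0.33 for Tjp1, and -0.24 for Jup. After the offsets, which also centre each library, 4 members were higher and 1 lower in MC38-LM3a, where 26.5% of 11096 genes were called higher and 24.6% lower. In MC38-LM3b 5 were higher and 1 lower, where 29.3% of genes were higher and 28.3% lower. On those values F11r was higher by 0.59 and 0.67, Dsp by 0.66 and 0.59, Pkp2 by 0.41 and 0.39 and Ocln by 0.34 and 0.29 in MC38-LM3a and MC38-LM3b. Both comparisons use the same MC38-P libraries and are not independent of each other.

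**Figure D3:**
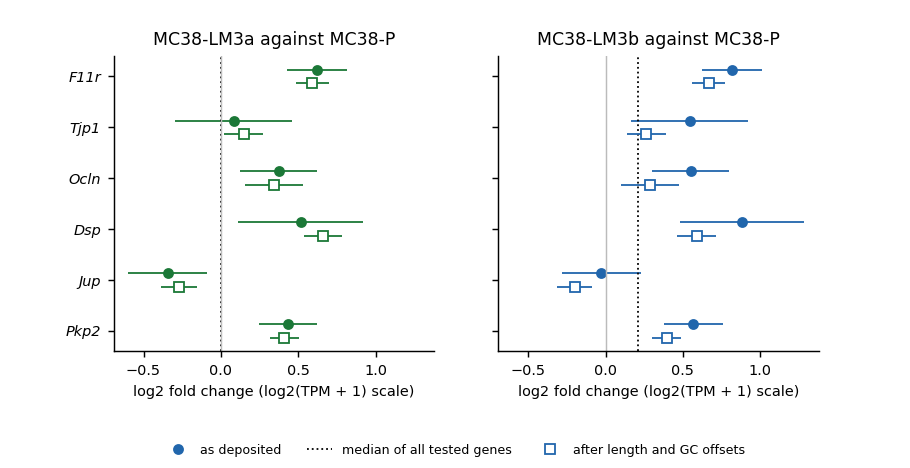
Log2 fold change of the 6 tested members against MC38-P, on the log2(TPM + 1) scale. Filled circles are deposited values, open squares are values after the length and GC offsets, bars are 95% intervals from limma, and the dotted line is the median of all tested genes on deposited values. F11r, Ocln, Dsp and Pkp2 lie above 0 in both panels, Jup lies at or below 0, and Tjp1 in MC38-LM3b moves from 0.54 to 0.26 after the offsets.

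Between the derivatives, 0 of the 6 members differed at an adjusted p under 0.05 by limma. The background was as low, with 0.0354% of genes called higher in MC38-LM3b and 0.0177% lower on deposited values, and 0.0901% and 0.117% after the offsets. The differences of the 6 members on deposited values were all above 0, from 0.13 for Pkp2 to 0.46 for Tjp1, in a comparison where the median of all genes was 0.21. At an unadjusted p under 0.05 by limma, 3 members (F11r, Tjp1 and Jup) differed on deposited values. F11r, at 0.20, lay below the median of all genes. The share of all genes at that threshold is not given here, so nothing is read from this count. After the offsets the differences of the 6 members ran from -0.07 for Dsp to 0.11 for Tjp1. Without MC38-LM3a replicate 3, 4 members (F11r, Tjp1, Dsp and Jup) were called higher in MC38-LM3b, at limma adjusted p of 0.00388 to 0.0238, in a comparison where 6351 of the 11256 genes tested were called in either direction.

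The balance between partner genes was also compared within each library, which removes any scaling of the whole library. The ratio of Pkp2 to Jup was 0.822 ± 0.0479 (SD, n = 3) in MC38-P, 1.42 ± 0.0318 (SD, n = 3) in MC38-LM3a and 1.25 ± 0.0926 (SD, n = 3) in MC38-LM3b. The ratio of Dsp to Jup was 0.245 ± 0.0122, 0.459 ± 0.0799 and 0.474 ± 0.0225 (SD, n = 3 each). Every library of both derivatives lay above every parental library in both ratios. Pkp2 also gained on Pkp4, the related plakophilin, from a ratio of 1.03 ± 0.0976 to 1.69 ± 0.21 and 1.54 ± 0.0485 (SD, n = 3 each), and its share of the 4 listed plakophilins was 47.1%, 59.6% and 58.1% on average. The ratio of Cgnl1, a plaque gene described with the wider list, to Tjp1 was 0.238 ± 0.0169, 0.459 ± 0.0159 and 0.48 ± 0.00637 (SD, n = 3 each), again without overlap between MC38-P and either derivative. The ratio of F11r to Tjp1 was 0.454 ± 0.0531, 0.668 ± 0.114 and 0.552 ± 0.028 (SD, n = 3 each), with the highest MC38-P library at 0.513 and the lowest MC38-LM3b library at 0.52. The two-sided exact permutation test against MC38-P gave p = 0.1, the smallest that 3 against 3 libraries allow, for all 5 ratios computed in both derivatives, and adjustment over these 10 tests leaves it at 0.1. The ratios were not among the planned tests. Each set a gene called higher in MC38-LM3b over a gene not called higher in MC38-LM3a, in these same libraries. Their separation and p-values are therefore descriptions and add nothing to the calls above. A ratio shows unequal change and not which gene changed, and transcripts of unequal length, such as Dsp and Jup, share the length trend above.

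**Figure D4:**
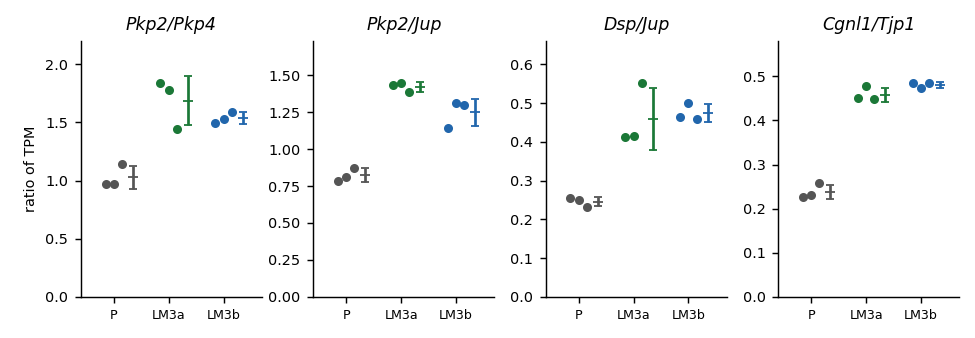
Ratios of TPM within each library for 4 of the 5 pairs of junction genes, with y axes starting at 0. Points are libraries and the mark with a bar beside them is the mean ± SD (n = 3). In all 4 panels the MC38-P libraries lie below those of both derivatives.

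The wider tight junction list, less the members, held 52 genes, of which 22 were tested. In MC38-LM3a 4 were higher and 0 lower by limma, beside 14.1% and 13.8% of all genes. In MC38-LM3b 13 were higher and 0 lower, beside 35.6% and 11.2%. At an unadjusted p under 0.05, 5 and 14 differed by limma. The share of all genes at that threshold is not given here, so nothing is read from the unadjusted counts. The median difference of the list was 0.07 and 0.39, beside -0.00 and 0.21 over all genes. After the offsets 9 were higher and 2 lower in MC38-LM3a, beside 26.5% and 24.6% of all genes, and 12 and 1 in MC38-LM3b, beside 29.3% and 28.3%. The 4 called in both comparisons on deposited values were Cgnl1, Patj, Amotl2 and Rab13.

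Cgnl1, which encodes paracingulin, a plaque protein that binds ZO-1 and regulators of small GTPases, was the only DEG of the list. Its level was 21.5 ± 2.71 TPM in the parental line, 44.6 ± 10.97 TPM in MC38-LM3a, while 63.1 ± 0.953 TPM was measured in MC38-LM3b (SD, n = 3 each), a log2 difference of 1.00 (limma adjusted p = 0.00067) and 1.52 (limma adjusted p = 3.64e-05). Patj, a polarity scaffold of the Crumbs complex, was higher by 0.56 and 0.72 (limma adjusted p = 0.0107 and 0.00203). Amotl2, an angiomotin, was higher by 0.39 and 0.61 (limma adjusted p = 0.0248 and 0.00165). Rab13, a GTPase that traffics junction proteins, was higher by 0.50 and 0.41 (limma adjusted p = 0.0124 and 0.0206). Calls of Cgnl1 and Patj stood in every alternative in which they were tested, although the Cgnl1 difference in MC38-LM3a, just past the DEG threshold, ran from 0.75 to 1.11 over them. Amotl2 lost its MC38-LM3a call in 3 of 21, among them without MC38-P replicate 3, with limma adjusted p up to 0.0778. Rab13 lost its MC38-LM3b call in 5 of 21, among them without MC38-P replicate 2 or MC38-LM3b replicates 1 or 2, with limma adjusted p up to 0.276.

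**Figure D5:**
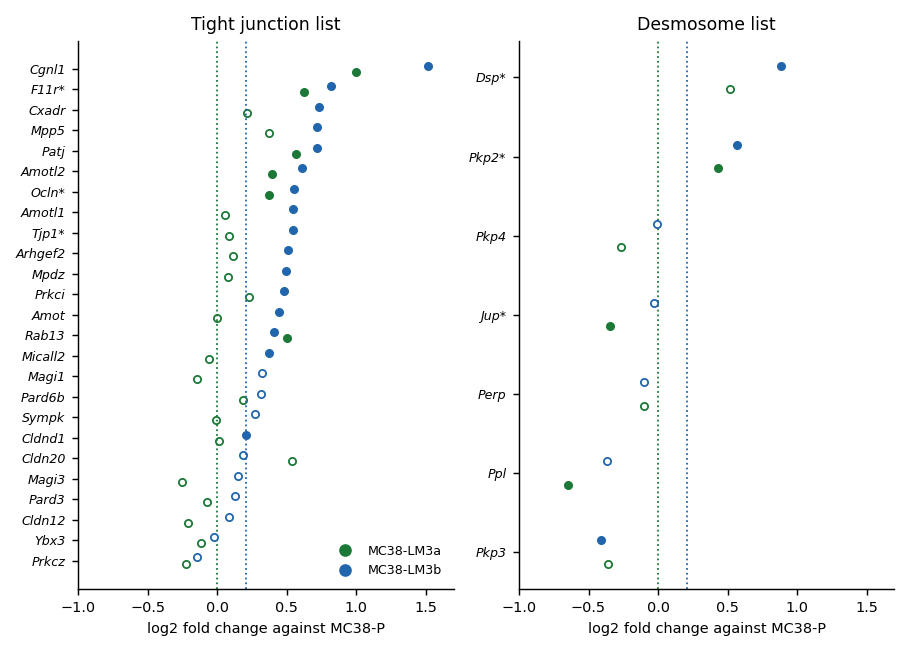
Log2 fold change against MC38-P of all tested genes of the tight junction list (left, 25 genes) and the desmosome list (right, 7 genes), with MC38-LM3a in green and MC38-LM3b in blue. Filled points passed an adjusted p under 0.05 by limma, open points did not, asterisks mark the members, and dotted lines are the medians of all tested genes. Cgnl1 and F11r lie highest on the left, and on the right Dsp and Pkp2 lie above the other desmosome genes.

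Of 17 genes besides the members, 4 were tested, and they are named here after their values were seen. Ppl, which encodes the plakin periplakin, was lower in MC38-LM3a at -0.65 (limma adjusted p = 0.0171) with a difference of -0.37 in MC38-LM3b (limma adjusted p = 0.1). After the offsets Ppl was lower in MC38-LM3b too, at -0.64 (limma adjusted p = 2.06e-05), and it was called there in 9 of 21 alternatives. Pkp3, a plakophilin of epithelia, was lower in MC38-LM3b at -0.41 (limma adjusted p = 0.0212) with a difference of -0.36 in MC38-LM3a (limma adjusted p = 0.053). The Ppl call was lost in 6 of 21 alternatives, among them without MC38-P replicates 1 or 2 or MC38-LM3a replicates 1 or 2 (limma adjusted p up to 0.0694). The Pkp3 call was lost in 3 of 21, among them without MC38-P replicate 1 or MC38-LM3b replicate 3 (limma adjusted p up to 0.0955). Pkp4 and Perp, which encodes a membrane protein of desmosomes, were not called in either derivative on deposited values, and after the offsets Pkp4 was lower in both, at -0.23 each (limma adjusted p = 0.0147 and 0.0116). The list without the members had 0 higher and 1 lower in each comparison, beside 14.1% higher and 13.8% lower of all genes in MC38-LM3a and 35.6% and 11.2% in MC38-LM3b. After the offsets it had 0 higher with 2 and 3 lower, beside 26.5% higher and 24.6% lower, and 29.3% and 28.3%. With only 4 genes tested, nothing is read from these counts. The 4 desmosomal cadherins listed (Dsg1c, Dsg2, Dsc1 and Dsc2) summed to 0.02 to 0.18 TPM in every library, far under Dsp, Jup and Pkp2.

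The epithelial label was checked against its markers. Krt8 and Krt18, the keratin pair of simple epithelia to which desmoplakin attaches, were abundant, at 744 to 1206 TPM and 707 to 981 TPM. Epcam, an epithelial adhesion molecule, was at 1.87 to 6.31 TPM, and Cdh1, which encodes E-cadherin, at 0 to 0.08 TPM in all 9 libraries. Of the 16 epithelial markers listed, 7 reached 1 TPM in any library. Cdh2, which encodes N-cadherin and is named after its values were seen, was at 39.3 to 50.3 TPM in MC38-P, 53.4 to 71.5 TPM in MC38-LM3a and 77.8 to 78.9 TPM in MC38-LM3b.

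While F11r, Ocln and Pkp2 were higher in both derivatives, 4 of the 6 tested epithelial markers were called lower in each comparison (Epcam, Krt8, Krt18 and Cdx2), where 13.8% and 11.2% of all genes were lower and the MC38-P libraries are shared, and the other 2, Krt19 and Krt20, were higher in MC38-LM3a, where 14.1% of all genes were. Cdx2 reached 1 TPM in the MC38-P libraries and in no derivative library, so it could be tested only because it was high in the parental line, and its call supports nothing here. Epcam fell in both, with differences of -1.14 and -1.07 (limma adjusted p = 9.61e-05 and 0.000104). Krt8 was lower, at -0.48 and -0.56 (limma adjusted p = 0.000465 and 0.000134) and so was Krt18, at -0.24 and -0.32 (limma adjusted p = 0.0256 and 0.00424), the MC38-LM3a call of Krt18 being lost in 5 of 21 alternatives, among them without MC38-P replicates 2 or 3 (limma adjusted p up to 0.215). Krt19 was higher in MC38-LM3a by 0.39 (limma adjusted p = 0.00358), a call lost in 1 of 21 alternatives, with each library centred on its median (limma adjusted p = 0.0504), and the difference in MC38-LM3b was -0.08 (limma adjusted p = 0.413). Krt20, a keratin of intestinal epithelium named after its values were seen, had a difference of 0.55 in MC38-LM3a (limma adjusted p = 0.0344) and 0.33 in MC38-LM3b (limma adjusted p = 0.134). All 3 MC38-P libraries were under 1 TPM for Krt20, which passed the filter through the derivatives, so its call is given as a description. Of the adherens junction list 10 genes were tested, with 0 higher and 1 lower in MC38-LM3a, beside 14.1% and 13.8% of all genes, and 4 higher and 0 lower in MC38-LM3b, beside 35.6% and 11.2%. After the offsets these counts were 4 and 2 in MC38-LM3a, beside 26.5% and 24.6%, and 3 and 2 in MC38-LM3b, beside 29.3% and 28.3%.

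Of 15 listed transcription factors that act on junction genes or epithelial identity, 10 were tested, with 1 higher and 3 lower in MC38-LM3a and 3 higher and 3 lower in MC38-LM3b, where 14.1% and 13.8%, and 35.6% and 11.2%, of all genes were called. Cdx2 is 1 of the 3 lower factors in each and is also counted among the epithelial markers above. After the offsets the counts were 3 and 4, and 3 and 3, where 26.5% and 24.6%, and 29.3% and 28.3%, were called. Cdx2, an intestinal factor that passed the filter only through MC38-P, is given as a description. It was at 2.27 ± 0.541 TPM in MC38-P and at 0.63 ± 0.251 and 0.41 ± 0.141 TPM in the derivatives (SD, n = 3 each), differences of -1.001 and -1.20 (limma adjusted p = 0.00101 and 0.00023). Grhl2, a grainyhead factor that activates epithelial junction genes, was lower, at -0.96 and -0.71 (limma adjusted p = 0.000713 and 0.00276). Elf3, an epithelial ETS factor named after its values were seen, was lower too, at -0.97 and -0.91 (limma adjusted p = 0.000284 and 0.000288). Snai2, a repressor that binds the E-box, was higher by 0.87 and 1.15 (limma adjusted p = 0.00146 and 0.00018), from 2.16 ± 0.186 TPM to 4.82 ± 0.961 and 6.07 ± 0.902 TPM (SD, n = 3 each). Elf3 and Snai2 kept their calls in all 21 alternatives and Grhl2 in the 20 in which it was tested, all but the filter of 5 TPM. On deposited values Snai1 was not called in either derivative, with differences of -0.36 and -0.11, and neither was Zeb1, with -0.03 and 0.32. Snai1 was called lower in 7 of 21 alternatives in MC38-LM3a, among them after the offsets (-0.31, limma adjusted p = 0.0437), and in 3 of 21 in MC38-LM3b, while Zeb1 was called in 1 and 4 of 21. Zeb2 was higher in MC38-LM3b by 0.56 (limma adjusted p = 0.0182), a call lost in 5 of 21 alternatives, among them without MC38-P replicate 3 or any MC38-LM3b library (limma adjusted p up to 0.057). After the offsets Zeb2 was also higher in MC38-LM3a, by 0.24 (limma adjusted p = 0.00466). Twist1, named after its values were seen, was higher in MC38-LM3b by 0.39 (limma adjusted p = 0.00488). Its difference in MC38-LM3a was 0.23 (limma adjusted p = 0.0687). After the offsets Twist1 was higher in both, by 0.28 and 0.36 (limma adjusted p = 0.00355 and 0.00057). Ovol2 stayed at or under 0.28 TPM.

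Markers of other cells were followed because the derivatives came from liver lesions. In bulk RNA, fewer cells of a type and less RNA per cell cannot be told apart. None of the 7 listed hepatocyte markers reached 1 TPM, and their sum was at most 1.00 TPM in any library. Of the biliary list, whose 4 genes at 1 TPM include Epcam and Krt19, the sum was 358 to 385 TPM in MC38-P, 339 to 351 TPM in MC38-LM3a, and 341 to 347 TPM for the MC38-LM3b libraries. Most of it was Spp1, named after its values were seen, at 177 to 269 TPM. Krt7 and Cftr, so named too, stayed at or under 0.20 and 0.02 TPM. The endothelial sum was 15.8 to 20.6, 15.3 to 17.4 and 15.4 to 17.1 TPM, with 2 of 8 markers at 1 TPM in any library. Most of this sum was Egfl7, at 12.9 to 19.0 TPM, and Pecam1 stayed at or under 0.25 TPM, both named after their values were seen. Of 6 hematopoietic markers 1 reached 1 TPM, Cd68, a lysosomal protein of macrophages and other cells, which was higher by 0.33 and 0.57 (limma adjusted p = 0.022 and 0.000795, the first lost in 2 of 21 alternatives, 1 of them without MC38-P replicate 2, at up to 0.0845), while Ptprc, the pan-leukocyte marker, stayed at or under 0.09 TPM. The hematopoietic sum was 28.5 to 30.0, 34.8 to 41.8 and 40.6 to 46.3 TPM, and nearly all of it was Cd68, at 27.7 to 45.6 TPM. This sum moved with F11r, Ocln and Pkp2, and its part in their differences was not tested. The fibroblast sum was 136 to 174 TPM in MC38-P against 54.7 to 73.3 TPM and 66.4 to 73.3 TPM in the derivatives. Most of it was Col3a1, a collagen chain named after its values were seen, at 123 to 154, 48.6 to 64.8 and 57.0 to 64.2 TPM. Col3a1 was lower at -1.34 and -1.19 (limma adjusted p = 2.08e-05 and 3.64e-05). Pdgfra, also named after its values were seen, was not called in either derivative. Col1a2, Dcn and Des, named in the same way, stayed at or under 0.08, 0.13 and 0.93 TPM in every library. Col1a1, another collagen chain, was lower at -1.55 and -1.48 (limma adjusted p = 9.81e-05 and 9.91e-05). Pdgfrb, a growth factor receptor of fibroblasts named after its values were seen, went the other way, higher by 0.88 in MC38-LM3b (limma adjusted p = 0.000695) with a difference of 0.30 in MC38-LM3a (limma adjusted p = 0.135), which became a call of 0.38 after the offsets (limma adjusted p = 0.00736).

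F11r, Ocln, Pkp2 and Dsp ran closely together over the 9 libraries. On the log2(TPM + 1) scale the Pearson correlation of F11r with Pkp2 was 0.991, and that of Ocln was 0.94 with F11r and 0.933 with Pkp2. Dsp had 0.929 with F11r, 0.95 with Pkp2 and 0.895 with Ocln, and Tjp1 had 0.704, 0.753 and 0.704 with the same genes and 0.901 with Dsp. The correlation of Jup was -0.121 with F11r, -0.068 with Pkp2, 0.195 with Dsp and 0.542 with Tjp1. The points share their 3 groups and the library trends, so these values are descriptions. Of all tested genes, those most like F11r were Rfesd, Ypel5 and Abhd4 (r = 0.997 each). Most like Pkp2 were Abcg2, Trappc12 (r = 0.996 each) and Slc44a2 (r = 0.995), and most like Ocln were Mpp1 (r = 0.992), Dnase1l1 (r = 0.989) and Trim30a (r = 0.987).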

How the data were processed

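Poly(A) RNA was sequenced in 9 libraries by the authors on the DNBSEQ platform. The values deposited were TPM, rounded to 2 decimals, for 16399 genes. The submitters' processing notes name HISAT and GRCm39, and the quantification tool is not given in the sources used here. The study names DESeq2 for its own differential analysis, which needs counts and was not run here. Depth per library is unknown, so no counting intervals are given.

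Groups came from the sample labels. R 4.3.3 with limma 3.58.1 was run on log2(TPM + 1) in 1 model with a mean per group over 9 libraries and a trended variance, on the 11287 genes that reached 1 TPM in 3 or more libraries. Adjusted p-values follow Benjamini and Hochberg and run over all of these genes. Calls had an adjusted p under 0.05. Offsets for length and GC content were loess fits of span 0.3 in each library, from the longest GENCODE M21 transcript, available for 98.3% of tested genes. The procedure was tested on simulated data.

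Named genes were the members, tight junction and desmosome genes called in both derivatives, the largest change called in both in each other list, 5 epithelial markers, 6 regulators, and the 3 genes most like each member called in both. Others are said to be named after their values were seen. The tight junction list omits 1 gene that is not reported here. The members and lists were chosen with earlier results of these data known. Alternatives changed the pseudocount, filter, scaling, weights, covariates and libraries.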

Additional observations from a re-analysis of the deposited data

How the results depend on the processing

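Among the differences of the 6 tested members recomputed under 21 alternatives, 310 values kept their direction and side of the threshold, 28 gained a call, 23 lost one and 17 changed sign. Members called in MC38-LM3a numbered 4, against 2 with only the 6 libraries compared and 2 to 4 when a library was left out. In MC38-LM3b they numbered 5, and 4 to 5 with a library left out. Between the derivatives they numbered 0, against 6 with limma arrayWeights (whose fit gave convergence warnings), 5 with the first residual component as covariate, and 0 to 4 with a library left out.

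The replicate block lowered the members called in MC38-LM3a to 2, with Ocln (adjusted p = 0.078) and Jup (0.0889) lost, and ended the Tjp1 call in MC38-LM3b (0.0631), by limma. Over all genes, the block left 2200 called in MC38-LM3a, 3891 in MC38-LM3b and 2 between the derivatives. Deviations of same-numbered libraries correlated at -0.662 to 0.075, and 0 of 9 pairs passed 0.1. Same-numbered pairs with an MC38-LM3b library lay at 0.035 to 0.075, and differently numbered pairs with one at -0.063 to 0.007. Pairs of MC38-P with MC38-LM3a carry the length trends of the replicate 3 libraries. These values therefore do not settle whether replicate numbers pair the libraries.

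Over all genes, 3160 were called in MC38-LM3a, against 2101 (6 libraries), 5669 (offsets), 5262 (replicate block with offsets), 8817 (arrayWeights), 6831 (residual component) and 2083 to 4211 with a library left out. In MC38-LM3b 5276 were called, against 9307 (arrayWeights) and 8478 (residual component). Between the derivatives 6 were called, against 2 (pseudocount 0.1), 2 (filter of 5 TPM), 3 (6 libraries), 23 (offsets), 10 (quantile normalization), 12 (median centring), 8681 (arrayWeights), 7398 (residual component) and 0 to 6351 with a library left out, the last without MC38-LM3a replicate 3.

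Sign changes were few. The Tjp1 difference in MC38-LM3a was -0.21 with arrayWeights and -0.12 to 0.20 with a library left out, and that of Jup in MC38-LM3b -0.143 to 0.0572. Between the derivatives Ocln was -0.053 with offsets, with or without the replicate block, -0.0884 with quantile normalization and -0.0461 with centring. Dsp was -0.0705 with offsets, again with or without the block. Pkp2 was -0.016 with offsets, with or without it, -0.0157 with quantile normalization and -0.0879 with centring, and F11r -0.0232 with centring. The cause of these changes was not tested. Unknown depth limits what can be said of the claudins.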
